A study of Homo sapiens with 60 samples.

Results

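The ethanol extract of Aucklandiae Radix at its medium dose (74 µg/mL) and its low dose (14.8 µg/mL) was examined in HT29 cells, with 1 library at each dose, 2 of the 60 libraries of the series. HT29 is a cell line from a human colorectal adenocarcinoma, and the cells were exposed for 24 h before RNA was taken. The libraries were chosen by their labels. Each was set against 1 library of Polygalae Radix at its low dose (15.2 µg/mL), whose library name shares its prefix with the Aucklandiae libraries, and against the mean of 3 vehicle libraries (DMSO), whose names carry another prefix. Both herbs were extracted with 70% ethanol. The vehicle is given as 0.1% DMSO by the sample labels and as 2% by the series text, and the labels of the extract libraries name no percentage. The series tested such herbal extracts at 3 doses that differ by steps of 5-fold. The high dose of Aucklandiae Radix (370 µg/mL, 1 library) is given beside the other doses where it adds to their description. What the prefix of the library names stands for is not stated, so against the vehicle the extract and the prefix cannot be told apart. With 1 library per dose there is no replicate check and no test of any ratio.

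Aucklandiae Radix is the dried root of Aucklandia costus, whose best known constituents are the sesquiterpene lactones costunolide and dehydrocostus lactone. These compounds carry a reactive methylene group that binds thiols. Cells sense thiol-reactive compounds through KEAP1, an adaptor protein that marks the transcription factor NRF2 for degradation until its cysteines are modified. NRF2 then pairs with small MAF proteins on antioxidant response elements and raises enzymes that reduce carbonyls and quinones, make glutathione and NADPH, and store iron. In the gut epithelium these enzymes handle reactive compounds that arrive with food.

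Values are CPM, read counts scaled to the library size, after TMM scaling, and ratios are log2 ratios of CPM with 0.1 CPM added to both sides, which understates changes of weakly expressed genes. A gene was taken as past the fold when the ratio reached 1.5-fold (0.585 on the log2 scale) and, against the vehicle, when the extract library also lay outside the range of the 3 vehicle libraries. Totals were 28187701 counts at the medium dose, 29145707 counts at the low dose, 22266982 for Polygalae low and 26739231 to 30446712 for the vehicle, and 13186 of 60675 genes averaged at least 1 CPM over these 6 libraries. Between replicate libraries elsewhere in the series the median gene had a pooled SD of 0.086 on the log2 scale (17 groups, 49 libraries). The mitochondrial genome took 9.54% of counts at the medium dose, 9.36% of counts at the low dose and 9.27% in Polygalae low, against 12.1%, 9.21% and 11.5% in the vehicle. Of 15 epithelial markers 14 averaged at least 1 CPM, with EPCAM at 510 CPM at the medium dose and 511 CPM at the low dose, and the exception was CDX1 (0.544 and 0.759 CPM). Markers of other cell types were near 0 in all 6 libraries, such as PTPRC of leukocytes, COL3A1 of fibroblasts, HBB of erythroid cells, CDH5 of endothelium and ALB of hepatocytes. The exceptions at 1 CPM or more were COL1A1, CD14, CD68, PECAM1 and SERPINA1. SERPINA1 was the only hepatocyte marker averaging at least 1 CPM. The hepatocyte list summed to 303 CPM at the medium dose, 335 CPM at the low dose and 330 CPM in Polygalae low.

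The promoters of 6 NRF2 targets are shown first, because they frame the results: the AKR1C genes were past 1.5-fold at the medium dose against both comparators, and TXNRD1, GCLM and ME1 hold the core of the antioxidant response element. The sequences run from 250 bases before to 50 bases after the gene start, 5′ to 3′ in the direction of the gene, from RefSeq on GRCh38.p14. Capitals mark matches to TGACNNNGC on either strand. A match is a description of the letters and not a bound site.
AKR1C1 (chr10:4963165-4963464, plus strand): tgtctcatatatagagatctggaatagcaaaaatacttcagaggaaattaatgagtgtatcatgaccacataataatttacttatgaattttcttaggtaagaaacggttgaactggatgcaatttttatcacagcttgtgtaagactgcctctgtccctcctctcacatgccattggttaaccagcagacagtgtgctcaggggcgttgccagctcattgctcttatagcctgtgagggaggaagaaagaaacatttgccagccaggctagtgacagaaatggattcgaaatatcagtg
AKR1C2 (chr10:5003808-5004107, minus strand): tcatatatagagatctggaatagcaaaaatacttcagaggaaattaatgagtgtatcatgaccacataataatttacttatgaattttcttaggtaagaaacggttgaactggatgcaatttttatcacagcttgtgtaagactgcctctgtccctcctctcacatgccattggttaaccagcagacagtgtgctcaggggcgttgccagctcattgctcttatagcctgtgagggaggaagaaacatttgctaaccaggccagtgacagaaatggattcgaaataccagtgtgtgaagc
AKR1C3 (chr10:5048531-5048830, plus strand): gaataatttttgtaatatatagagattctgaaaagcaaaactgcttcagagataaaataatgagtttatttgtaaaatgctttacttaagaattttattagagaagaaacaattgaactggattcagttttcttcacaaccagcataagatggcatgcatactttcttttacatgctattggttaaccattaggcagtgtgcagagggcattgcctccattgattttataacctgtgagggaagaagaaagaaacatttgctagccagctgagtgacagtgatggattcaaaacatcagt
TXNRD1 (chr12:104215529-104215828, plus strand): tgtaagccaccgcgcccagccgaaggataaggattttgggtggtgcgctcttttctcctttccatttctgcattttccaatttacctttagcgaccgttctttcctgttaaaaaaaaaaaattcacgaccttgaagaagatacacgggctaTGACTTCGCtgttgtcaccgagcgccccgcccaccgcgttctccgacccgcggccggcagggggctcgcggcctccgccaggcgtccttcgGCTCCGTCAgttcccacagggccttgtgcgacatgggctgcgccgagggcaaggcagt
GCLM (chr1:93909381-93909680, minus strand): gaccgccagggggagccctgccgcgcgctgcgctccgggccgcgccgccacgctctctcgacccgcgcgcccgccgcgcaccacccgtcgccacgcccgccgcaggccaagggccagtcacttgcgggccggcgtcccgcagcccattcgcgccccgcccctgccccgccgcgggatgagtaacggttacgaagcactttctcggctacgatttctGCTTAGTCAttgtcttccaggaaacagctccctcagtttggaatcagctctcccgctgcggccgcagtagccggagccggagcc
ME1 (chr6:83431002-83431301, minus strand): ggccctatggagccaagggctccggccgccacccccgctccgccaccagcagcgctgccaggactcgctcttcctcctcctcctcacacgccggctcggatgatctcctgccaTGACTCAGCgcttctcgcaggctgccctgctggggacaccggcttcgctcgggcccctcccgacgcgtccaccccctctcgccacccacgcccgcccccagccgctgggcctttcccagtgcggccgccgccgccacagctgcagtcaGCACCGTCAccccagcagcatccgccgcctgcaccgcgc

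The windows of AKR1C1 and AKR1C2 share an unbroken run of 245 bases, while the longest run shared by AKR1C1 and AKR1C3 is 18 bases. Of the 32 genes on the NRF2 target list, 23 had a promoter entry and 6 of these 23 held the core (TXNRD1, GCLM, ME1, PGD, SLC3A2 and CBR1), against 13.6% of 27305 promoters of the same length. Of the 32 members 9 had no entry, among them HMOX1, SLC7A11, PRDX1, AKR1B10, FTH1, ABCC3, GSR and TRIM16L. A heat shock element (GAANNTTC, either strand) was found in 2 of the 23 windows, against 6.87% of all promoters, and a xenobiotic response element core (GCGTG, either strand) in 11 of the 23, against 36.3%. None of the 6 members with the antioxidant core was past the fold at the medium dose against both references, and 5 of the 17 without it were (AKR1C1, AKR1C2, AKR1C3, FTL and EPHX1). Over all genes tested 0.44% were higher by this rule. At the high dose all 6 with the core and 8 of the 17 without it were at least 1.5-fold above the medium dose. Over all genes tested this share was 12.4%. The window covers only 300 bases, and elements farther from the start were not searched.

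At the medium dose the genes higher past the fold against both references included the aldo-keto reductases AKR1C1, AKR1C2, AKR1C3 and AKR1B10, the aldehyde dehydrogenase ALDH3A1 and the ferritin light chain FTL, and at the low dose each of these lay between the medium dose and the comparators. Against Polygalae low, 172 genes (1.3% of those tested) were higher and 325 (2.46%) lower past the fold at the medium dose, and 93 (0.705%) were higher and 144 (1.09%) lower at the low dose. Against the vehicle, 116 genes (0.88%) were higher and 244 (1.85%) lower at the medium dose, and 58 (0.44%) were higher and 107 (0.811%) lower at the low dose. Polygalae low set against the vehicle in the same way had 84 genes higher (0.637%) and 94 lower (0.713%), so the low dose count is about as large as that between these 2 references. Past the fold against both references were 58 higher (0.44%) and 151 lower (1.15%) genes at the medium dose, and 12 higher (0.091%) and 45 lower (0.341%) genes at the low dose. The 4 ratios share the Polygalae library and the vehicle libraries, so their agreement in direction is not independent.

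Of the 13186 genes, 13 were past the fold at both doses against both references. Of these, 5 were higher (0.0379%) and 8 lower (0.0607%), and these values chose the genes, so they are a description. The higher genes were ALDH3A1, AKR1C1, CYP4F11, the small nucleolar RNA SNORD3B-2 and a pseudogene without a symbol (ENSG00000227766). CYP4F11, a cytochrome that hydroxylates fatty acids, had 3.08 CPM at the medium dose and 1.55 CPM at the low dose, against 0.982 CPM in Polygalae low and 0.988, 0.710 and 0.796 CPM in the vehicle. It reached 45.2 CPM at the high dose. The low dose value of CYP4F11 rested on 45 counts, against 22 counts in Polygalae low. Its log2 ratio there was 0.61, with an interval for counting error of -0.11 to 1.47, which includes no change. Over the vehicle that interval was 0.32 to 1.45 at the low dose, which includes values short of the fold. With 1 CPM added in place of 0.1, CYP4F11 left the set of genes past the fold at both doses. The lower genes were SULT1A3, DSEL, ENSG00000259316 and the pseudogenes RPL21P75, RPL15P3, RPL39P3, ZBTB45P2 and PRKXP1. SULT1A3, a sulfotransferase for catecholamines with a near-identical copy on chromosome 16, had 1.63 CPM at the medium dose and 1.24 CPM at the low dose, against 3.75 CPM in Polygalae low and 4.63, 3.47 and 1.80 CPM in the vehicle. Most of the lower genes are copies that share reads with other loci, so how reads were divided among copies bears on them and was not tested. Just inside the limit lay AKR1C1, whose smallest of the 4 ratios was 0.59, and CYP4F11 with 0.61. Just outside lay CLHC1 with 0.54 and LMNTD2 with 0.48, both below 3 CPM.

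AKR1C1, AKR1C2 and AKR1C3 encode aldo-keto reductases that reduce steroid and lipid carbonyls and lie side by side on chromosome 10. AKR1C2 (ENSG00000151632, chr10:4987400-5018031, minus strand) had 60.8 CPM at the medium dose and 22.9 CPM at the low dose, against 16.4 CPM in Polygalae low and 19.8, 14.8 and 16.0 CPM in the vehicle. Both Aucklandiae libraries lay above all 4 comparators. The medium dose was 3.68-fold above Polygalae low, with a log2 ratio of 1.88 and a 95% counting interval of 1.72 to 2.05, and 3.59-fold above the vehicle mean. The low dose was 1.39-fold and 1.36-fold above them, short of the fold. Counting intervals cover counting error only.

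AKR1C1 (ENSG00000187134, chr10:4963253-4983283, plus strand) had 55.9 CPM at the medium dose and 27.3 CPM at the low dose, against 18.1 CPM in Polygalae low and 17.96, 17.5 and 18.5 CPM in the vehicle. The 4 comparators lay within about 1 CPM of each other and both Aucklandiae libraries stood well clear of them. The log2 ratio at the medium dose was 1.62 (1.47 to 1.79) over Polygalae low and 1.63 (1.53 to 1.74) over the vehicle. At the low dose it was 0.59 (0.42 to 0.77) and 0.60 (0.48 to 0.73), so the intervals of the low dose include values short of the fold. Leaving out vehicle replicate 2 gave 0.58 over the vehicle, and scaling by plain library totals gave 0.57 over Polygalae low. With 1 CPM added in place of 0.1, the low dose ratios were 0.57 over Polygalae low and 0.58 over the vehicle. Each of these settings puts AKR1C1 outside the set of genes past the fold at both doses. The pooled SD of AKR1C1 between replicate libraries was 0.08.

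AKR1C3 (chr10:5035354-5107686, plus strand) had 96.6 CPM at the medium dose and 57.3 CPM at the low dose, against 42.3 CPM in Polygalae low and 46.7, 40.6 and 45.9 CPM in the vehicle. Again no comparator reached either dose. The sequences of the 3 AKR1C genes are so alike that reads can be divided among them, so the order among them is uncertain. AKR1B10 (ENSG00000198074, chr7:134527592-134541408, plus strand), a reductase of retinal and dietary aldehydes, had 234 CPM at the medium dose and 132 CPM at the low dose, against 96.5 CPM in Polygalae low and 108, 100.3 and 108 CPM in the vehicle. Its log2 ratios over the vehicle were 1.15 at the medium dose and 0.32 at the low dose.

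**Figure D1:**
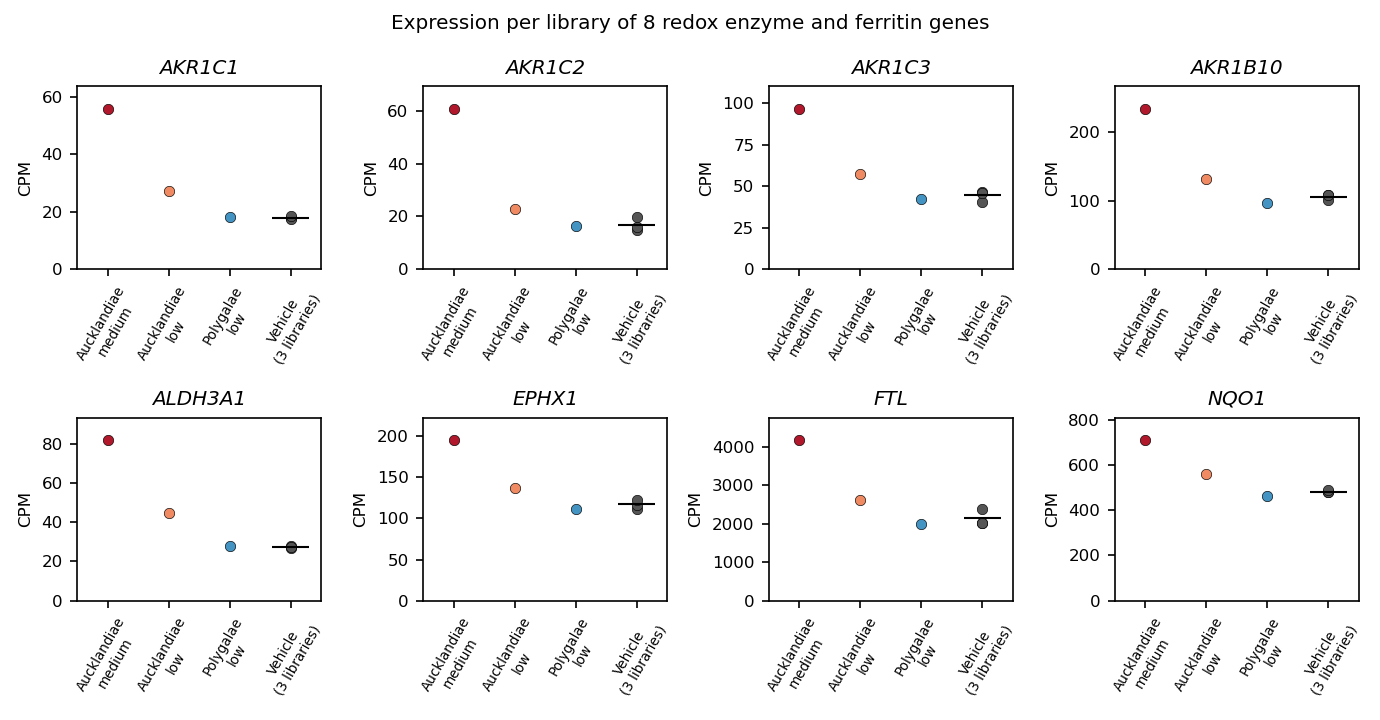
CPM (linear axis from 0) of 8 genes in the Aucklandiae medium, Aucklandiae low, Polygalae low and 3 vehicle libraries; each point is 1 library and the bar is the vehicle mean. In all 8 panels the medium dose is highest and the low dose next, as for AKR1C1 with 55.9 and 27.3 CPM against 17.5 to 18.5 CPM in the 4 comparators.

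ALDH3A1, an aldehyde dehydrogenase that oxidises aromatic and lipid aldehydes, was past the fold at both doses against both references. ALDH3A1 (ENSG00000108602, chr17:19737984-19748943, minus strand) had 81.8 CPM at the medium dose and 44.5 CPM at the low dose, against 28.0 CPM in Polygalae low and 27.7, 26.9 and 27.4 CPM in the vehicle. The comparators differed by little more than 1 CPM, and the low dose lay well above them. The log2 ratio at the low dose was 0.66 (0.53 to 0.81) over Polygalae low and 0.70 (0.60 to 0.80) over the vehicle, and at the medium dose 1.54 (1.42 to 1.68) and 1.58 (1.496 to 1.66). ALDH3A1 is also a classical target of the aryl hydrocarbon receptor, a sensor of planar aromatic compounds. CYP1A1, the main target of that receptor, had 0.762 CPM at the medium dose and 0.655 CPM at the low dose, against 0.670 CPM in Polygalae low and 0.477, 0.336 and 0.692 CPM in the vehicle. CYP1B1 had 45.9 CPM at the medium dose and 49.1 CPM at the low dose, against 45.6 to 48.1 CPM in the 4 comparators. UGT1A6, a glucuronosyltransferase on the same list, had 71.4 CPM at the medium dose and 59.3 CPM at the low dose, against 48.0 CPM in Polygalae low and 44.4, 46.2 and 44.7 CPM in the vehicle. Of the 8 tested genes on the aryl hydrocarbon receptor list ALDH3A1 alone was past the fold against both references, at either dose. Over all genes 0.44% were higher by this rule at the medium dose and 0.091% at the low dose.

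A further group of enzymes makes NADPH or clears quinones. PGD, which makes NADPH in an oxidative step of the pentose phosphate pathway, had 324 CPM at the medium dose and 274 CPM at the low dose, against 240.2 CPM in Polygalae low and 235, 223 and 238 CPM in the vehicle. The medium dose was highest, the low dose next, and neither overlapped the comparators. TKT, of the branch that returns pentoses to glycolysis, had 793 CPM at the medium dose and 670.2 CPM at the low dose, against 599 CPM in Polygalae low and 559, 552 and 606 CPM in the vehicle. NQO1 (ENSG00000181019, chr16:69706996-69726951, minus strand), the quinone reductase most used as an NRF2 readout, had 708 CPM at the medium dose and 559 CPM at the low dose, against 461 CPM in Polygalae low and 479, 481 and 487 CPM in the vehicle. Its log2 ratio at the medium dose was 0.62 over Polygalae low and 0.55 over the vehicle, so it was past the fold against Polygalae low only. EPHX1, an epoxide hydrolase, had 195 CPM at the medium dose and 138 CPM at the low dose, against 111 CPM in Polygalae low and 112, 117 and 122 CPM in the vehicle, and TRIM16L, a gene of the tripartite motif family, reached log2 ratios of 0.68 and 0.60 at the medium dose. OSGIN1, an oxidative stress induced growth inhibitor, had 22.8 CPM at the medium dose and 18.9 CPM at the low dose, against 15.1 CPM in Polygalae low and 15.7, 13.5 and 16.3 CPM in the vehicle.

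In the glutathione and thioredoxin branches, none of the 5 genes named here was past the fold against both references. Over all genes 0.44% were higher by this rule at the medium dose and 0.091% at the low dose, so this count is near the background. SLC7A11, the cystine importer, had 199 CPM at the medium dose and 149 CPM at the low dose, against 145 CPM in Polygalae low and 98.6, 132 and 110 CPM in the vehicle. GCLC, the catalytic subunit of glutathione synthesis, had 124 CPM at the medium dose and 99.7 CPM at the low dose, against 89.2 CPM in Polygalae low and 74.8, 85.7 and 77.4 CPM in the vehicle. Both were past the fold at the medium dose against the vehicle but not against Polygalae low, with log2 ratios of 0.46 and 0.48 there. With 12 low dose libraries of other extracts in place of the vehicle they were 0.52 and 0.56, short of the fold. GCLM, the modifier subunit, had 68.9 CPM at the medium dose and 60.7 CPM at the low dose, against 54.6 CPM in Polygalae low and 46.4, 58.9 and 47.8 CPM in the vehicle. TXNRD1, which reduces thioredoxin, had 433 CPM at the medium dose and 366 CPM at the low dose, against 339 CPM in Polygalae low and 334, 340 and 305 CPM in the vehicle. SRXN1, which repairs peroxiredoxins, had 85.0 CPM at the medium dose and 65.9 CPM at the low dose, against 64.3 CPM in Polygalae low and 66.7, 66.2 and 65.7 CPM in the vehicle. For SRXN1 the low dose thus lay inside the range of the comparators.

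Of the iron handling genes named here, FTL was past the fold against both references at the medium dose, and FTH1 and HMOX1 were not. FTL (ENSG00000087086, chr19:48965301-48966878, plus strand), the ferritin light chain, had 4174 CPM at the medium dose and 2622 CPM at the low dose, against 1983 CPM in Polygalae low and 2019, 2026 and 2374 CPM in the vehicle. Its log2 ratio at the medium dose was 1.07 over Polygalae low and 0.96 over the vehicle. FTH1, the heavy chain, had 6802 CPM at the medium dose and 4704 CPM at the low dose, against 4401 CPM in Polygalae low and 4163, 4324 and 5471 CPM in the vehicle, so the low dose lay inside the vehicle range. Both ferritin genes have many processed copies in the genome, among which reads can be divided. HMOX1, which opens haem and frees its iron, had 16.3 CPM at the medium dose and 13.3 CPM at the low dose, against 12.4 CPM in Polygalae low and 10.8, 11.1 and 11.6 CPM in the vehicle, short of the fold at both doses. Of the 15 tested genes on the iron handling list FTL alone was past the fold against both references at the medium dose. None was at the low dose. Over all genes 0.44% were higher by this rule at the medium dose and 0.091% at the low dose. The list medians were 0.193 and 0.145 at the medium dose and 0.081 and 0.033 at the low dose. At the medium dose 10 of the 15 lay above all 4 comparators and 2 below, beside 22.6% and 24.3% of all genes. At the low dose these were 4 and 1, beside 17.0% and 18.4%.

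Over the whole NRF2 target list, 8 of 32 genes were higher past the fold at the medium dose against both references. None was lower, and over all genes 0.44% were higher and 1.15% lower. Among the 8 were AKR1C1, AKR1C2, AKR1C3, AKR1B10, FTL, EPHX1 and TRIM16L. At the low dose AKR1C1 alone was past the fold against both, beside 0.091% of all genes higher. The list median was 0.408 over Polygalae low and 0.467 over the vehicle at the medium dose, and 0.123 and 0.218 at the low dose, beside medians between -0.01 and 0.00 over all genes tested. The medium dose lay above all 4 comparator libraries in 29 of 32 genes, beside 22.6% of all genes, and below all 4 in none, beside 24.3%. The low dose lay above all 4 in 22 of 32 genes, beside 17.0% of all genes, and below all 4 in none, beside 18.4%. The medium dose was above the low dose in all 32, beside 50.6% of genes tested. The exceptions at the medium dose were PRDX1, MAFG and ABCC2, and ABCC2 had under 3 CPM in all 6 libraries.

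**Figure D2:**
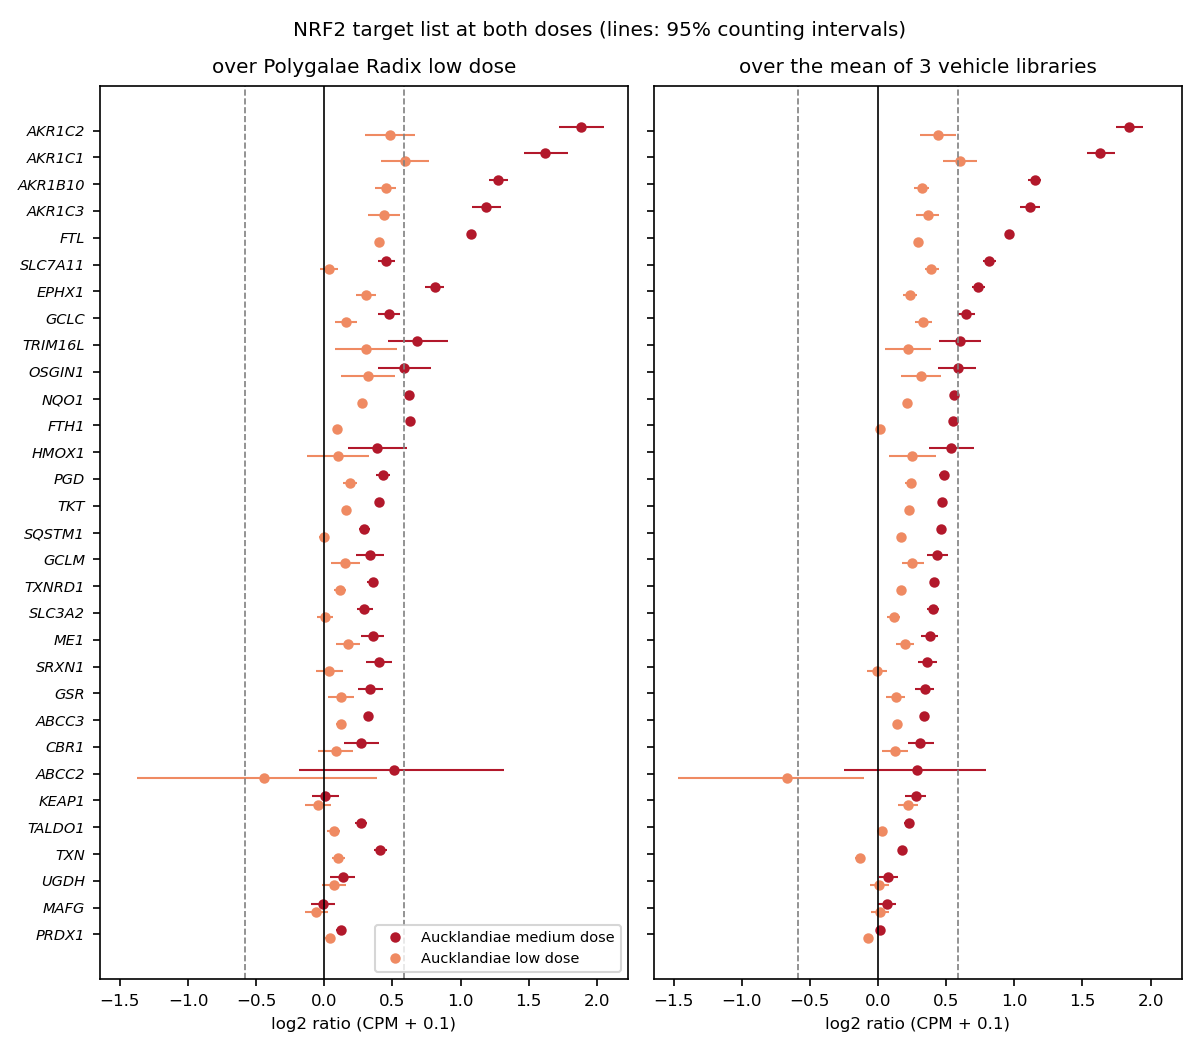
Log2 ratios of 31 of the 32 genes on the NRF2 target list at the Aucklandiae medium and low doses, over Polygalae low (left) and over the vehicle mean (right); lines are 95% counting intervals and dashed lines mark 1.5-fold. The medium dose runs from 0.01 to 1.84 over the vehicle, and the low dose sits nearer to 0, with AKR1C1 at 0.60.

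A rule chosen after the data had been seen set the fold aside and asked that each of the 4 ratios exceed 3 pooled SDs of the difference between replicate libraries. It was met by 9 genes in the higher direction and by 0 in the lower direction. Among them were ALDH3A1, AKR1C1, AKR1B10, AKR1C3, NQO1, PGD, UGT1A6 and UGT1A10, and 6 of the 9 are on the NRF2 target list. That list holds 32 of the 13186 genes tested. UGT1A10, a glucuronosyltransferase of the gut that shares exons with UGT1A6, had 437 CPM at the medium dose and 412 CPM at the low dose, against 359 CPM in Polygalae low and 365, 376 and 374 CPM in the vehicle. The pooled SDs of the 9 genes ran from 0.04 to 0.10, so small steps passed; PGD passed with a ratio of 0.19 at the low dose. AKR1C1 and ALDH3A1 met both this rule and the fold. The SDs leave out Yijin-tang low and Soshiho-tang high, a choice made with earlier results known; the median gene had an SD of 0.335 and 0.101 in these groups, against 0.0977 in the vehicle, the highest of the groups used. With these groups included, 1 gene met the rule in the higher direction (ALDH3A1) and 1 in the lower direction, so 8 of the 9 genes rest on leaving those groups out. No gene of the NRF2 target list then met the rule. AKR1C3 then had a pooled SD of 0.25 and NQO1 of 0.13.

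Most genes of the list were higher at the high dose than at the medium dose. The high dose exceeded the medium dose in 27 of 32 genes, and by at least 1.5-fold in 20, beside 12.4% of genes tested. It was at least 1.5-fold below the medium dose in 0 of 32, beside 16.1% of genes tested. HMOX1 reached 65.7 CPM, TXNRD1 1426 CPM, SRXN1 289 CPM and FTL 9768 CPM at the high dose. In TALDO1, TKT, AKR1B10 and AKR1C2 the medium dose was the higher one, by at most 0.25 on the log2 scale between single libraries. For AKR1B10 the step was 0.04, within its pooled SD of 0.05. AKR1C2 had 60.8 CPM at the medium and 50.9 CPM at the high dose. AKR1C1 did not share this order, with 27.3 CPM at the low, 55.9 CPM at the medium and 210 CPM at the high dose. Reads can be divided among the AKR1C genes, so this contrast is uncertain. ALDH3A1 had 44.5 CPM at the low, 81.8 CPM at the medium and 39.4 CPM at the high dose, so that the high dose lay below the low dose. UGT1A6 had 29.2 CPM at the high dose, below its low dose as well.

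**Figure D3:**
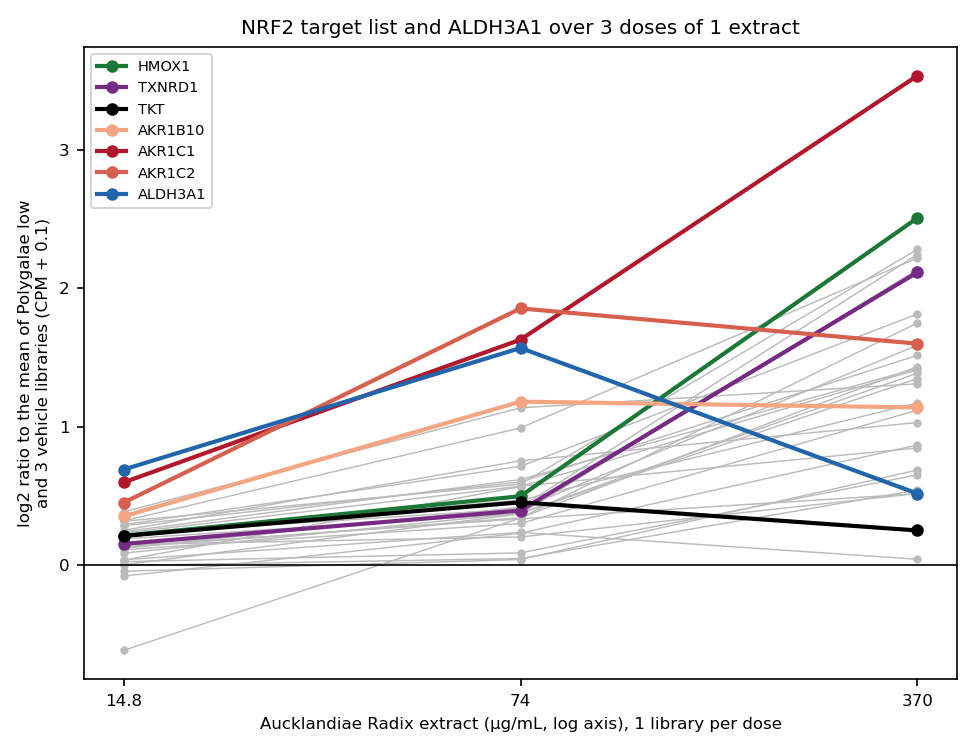
Log2 ratio to the mean of the Polygalae low and 3 vehicle libraries for 31 of the 32 NRF2 list genes and ALDH3A1 at 14.8, 74 and 370 µg/mL of Aucklandiae Radix (log axis), 1 library per dose; 7 genes are coloured and the others grey. AKR1C1, HMOX1 and TXNRD1 climb to the high dose, while AKR1C2, AKR1B10 and TKT end slightly below the medium dose and ALDH3A1 turns down after the medium dose.

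Among all 60 libraries the medium dose had the highest AKR1C2 and TKT. For AKR1C1 it was exceeded by the high dose of the same extract alone, and the highest of the 57 libraries of other treatments had 34.5 CPM. For ALDH3A1 it was exceeded by 1 library, replicate 3 of the Soshiho-tang high dose with 83.8 CPM, whose other replicate had 79.2 CPM. The low dose of EPHX1 (138 CPM) lay above all 57 other libraries, whose highest value was 137 CPM. AKR1C3 was higher than at the medium dose in Yijin-tang low replicate 2 (152 CPM). AKR1B10 was higher in Soshiho-tang high replicate 3 (237 CPM). Of genes lower at the medium dose, CD200 and RASL11A were lower still in Soshiho-tang high libraries, down to 1.13 and 7.09 CPM. For REG4 and TMEM238 none of the 57 lay below the medium dose.

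Several genes outside the redox lists were also higher at the medium dose. SCEL, a protein of the cornified envelope, had 19.2 CPM at the medium dose and 12.1 CPM at the low dose, against 8.93 CPM in Polygalae low and 8.55, 12.1 and 10.5 CPM in the vehicle. EMP1, a membrane protein of epithelial junctions, had 59.9 CPM at the medium dose and 31.9 CPM at the low dose, against 34.7 CPM in Polygalae low and 31.2, 32.5 and 30.4 CPM in the vehicle. SDCBP2, a syntenin, had 11.5 CPM at the medium dose and 5.00 CPM at the low dose, against 6.83 CPM in Polygalae low and 5.72, 6.31 and 6.58 CPM in the vehicle, so its low dose lay below every comparator. These genes were far higher still at the high dose, with 111 CPM for SCEL, 164 CPM for EMP1 and 180.5 CPM for SDCBP2.

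Of the 12 tested genes on the brush border list, the adhesion molecules CEACAM5 and CEACAM6 were past the fold at the medium dose against both references. None was at the low dose. Over all genes 0.44% were higher by this rule at the medium dose and 0.091% at the low dose. CEACAM6 had 56.0 CPM at the medium dose and 36.9 CPM at the low dose, against 34.0 CPM in Polygalae low and 34.8, 36.6 and 35.8 CPM in the vehicle. CEACAM5 had 12.3 CPM at the medium dose and 7.59 CPM at the low dose, against 6.61 CPM in Polygalae low and 6.17, 6.65 and 7.55 CPM in the vehicle. The list medians were 0.195 and 0.224 at the medium dose and 0.032 and 0.057 at the low dose. KRT20, a keratin of differentiated enterocytes, had 307 CPM at the medium dose and 235 CPM at the low dose, against 247 CPM in Polygalae low and 226, 249 and 245 CPM in the vehicle. DUSP5, a phosphatase that turns off ERK, had 7.37 CPM at the medium dose and 4.59 CPM at the low dose, against 4.60 CPM in Polygalae low and 4.60, 4.59 and 4.26 CPM in the vehicle. Of 26 immediate early and MAPK feedback genes DUSP5 alone was past the fold against both references, at the medium dose. Over all genes 0.44% were higher by this rule. With 1 CPM added to both sides DUSP5 was 0.58 over Polygalae low, just short of the fold.

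Lower at the medium dose were a few genes of the secretory and stem cell lists, and genes outside them. CD200 (ENSG00000091972, chr3:112332347-112362812, plus strand), a surface protein that restrains myeloid cells, had 1.67 CPM at the medium dose and 4.21 CPM at the low dose, against 4.51 CPM in Polygalae low and 5.04, 5.01 and 6.23 CPM in the vehicle. Its low dose was also below the comparators, by a small gap. The log2 ratio of CD200 at the medium dose was -1.38 (-1.97 to -0.92) over Polygalae low and -1.64 (-2.17 to -1.26) over the vehicle, and at the low dose -0.10 (-0.49 to 0.30) and -0.36 (-0.67 to -0.08).

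REG4 (ENSG00000134193, chr1:119794018-119811660, minus strand), a lectin of deep crypt secretory cells, had 10.6 CPM at the medium dose and 18.3 CPM at the low dose, against 20.5 CPM in Polygalae low and 23.7, 23.0 and 26.2 CPM in the vehicle. ATOH1, the transcription factor that commits cells to the secretory lineage, had 2.14 CPM at the medium dose and 3.55 CPM at the low dose, against 3.44 CPM in Polygalae low and 3.95, 3.03 and 4.19 CPM in the vehicle. These were the 2 of 15 tested genes on the goblet and secretory list past the fold against both references at the medium dose (3 were over Polygalae low and 4 over the vehicle), with list medians of -0.285 and -0.256 at the medium dose and -0.09 and -0.065 at the low dose. Over all genes 1.15% were lower past the fold against both references at the medium dose, 2.46% over Polygalae low and 1.85% over the vehicle. MUC2, the main gut mucin, had 15.7 CPM at the medium dose and 20.7 CPM at the low dose, against 22.8 CPM in Polygalae low and 33.8, 17.0 and 19.9 CPM in the vehicle, and the spread of the vehicle covered most of that difference. SPDEF, another secretory factor, had 40.4 CPM at the medium dose and 35.9 CPM at the low dose, against 34.7 CPM in Polygalae low and 33.1, 31.8 and 32.0 CPM in the vehicle, in the opposite direction to ATOH1.

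ASCL2, which maintains crypt stem cells, had 2.69 CPM at the medium dose and 4.35 CPM at the low dose, against 5.04 CPM in Polygalae low and 4.40, 4.59 and 4.36 CPM in the vehicle. NOTUM, which inactivates Wnt ligands, had 0.544 CPM at the medium dose and 1.66 CPM at the low dose, against 1.21 CPM in Polygalae low and 1.499, 1.20 and 1.38 CPM in the vehicle, so the 2 doses lay on opposite sides of the comparators. With NKD1 they were the 3 of 14 Wnt and stem genes lower past the fold against both references at the medium dose. None was at the low dose. Over all genes the shares were 1.15% at the medium dose and 0.341% at the low dose. NOTUM and NKD1 were at or below 2 CPM, and with 1 CPM added to both sides 1 ratio or both of ATOH1, ASCL2, NOTUM and NKD1 fell short of the fold. AXIN2 and RNF43, feedback targets of the same pathway, differed by at most 0.13 on the log2 scale from either reference. LGR5, the stem cell receptor, had 26.1 CPM at the medium dose and 33.5 CPM at the low dose, against 33.0 CPM in Polygalae low and 29.4, 29.8 and 29.2 CPM in the vehicle.

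**Figure D4:**
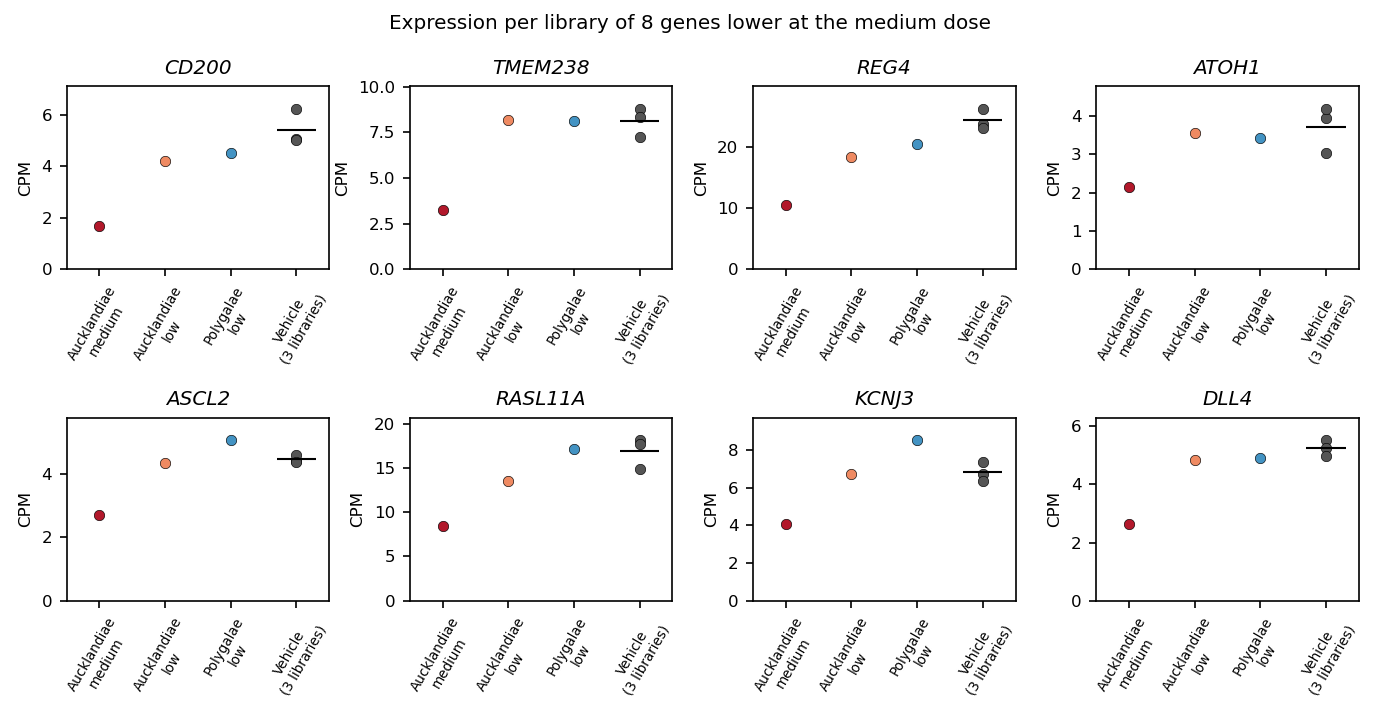
CPM (linear axis from 0) of 8 genes that were lower at the medium dose, in the Aucklandiae medium, Aucklandiae low, Polygalae low and 3 vehicle libraries; each point is 1 library and the bar is the vehicle mean. The medium dose is the lowest library in all 8 panels, with 10.6 CPM against 20.5 to 26.2 CPM in the 4 comparators for REG4, and the low dose lies nearer to the comparators.

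Other genes lower at the medium dose had varied roles. DLL4, a Notch ligand, had 2.65 CPM at the medium dose and 4.83 CPM at the low dose, against 4.91 CPM in Polygalae low and 5.52, 5.27 and 4.98 CPM in the vehicle. RASL11A, a small GTPase, had 8.49 CPM at the medium dose and 13.6 CPM at the low dose, against 17.1 CPM in Polygalae low and 14.9, 18.2 and 17.7 CPM in the vehicle, and KCNJ3, a potassium channel, had 4.10 CPM at the medium dose and 6.73 CPM at the low dose, against 8.53 CPM in Polygalae low and 6.75, 7.36 and 6.37 CPM in the vehicle. TMEM238 had 3.27 CPM at the medium dose and 8.17 CPM at the low dose, against 8.12 CPM in Polygalae low and 8.79, 8.37 and 7.23 CPM in the vehicle. PROX1 and DEPTOR were lower too, with log2 ratios over Polygalae low of -0.96 and -0.82. Over the vehicle PROX1 was -0.70, and Polygalae low (11.5 CPM) lay above its vehicle libraries (9.88, 9.60 and 9.45 CPM). DEPTOR was not past the fold against the vehicle (-0.55). At the low dose DEPTOR (6.14 CPM) lay above all 4 comparators, so its 2 doses lay on opposite sides of them. Of 18 p53 targets BTG2 and TP53INP1 were lower past the fold at the medium dose against both references, beside 1.15% of all genes. With 1 CPM added to both sides TP53INP1 was -0.54 over the vehicle, short of the fold. CDKN1A, the cell cycle inhibitor of that list, had 13.4 CPM at the medium dose and 11.0 CPM at the low dose, against 11.7 CPM in Polygalae low and 11.96, 10.6 and 10.7 CPM in the vehicle. MT1X, a metallothionein, had 1.42 CPM at the medium dose and 1.90 CPM at the low dose, against 2.63 CPM in Polygalae low and 2.83, 2.39 and 3.15 CPM in the vehicle. It alone of 4 tested genes on its list was past the fold against both references at the medium dose, beside 1.15% of all genes.

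Over the genes past the fold at the medium dose, the median ratio at the low dose had the same sign and a smaller size. Among the 30 protein-coding genes with a symbol and at least 5 CPM in 1 of the 6 libraries that were higher at the medium dose against both references, the median ratio was 0.786 over Polygalae low and 0.747 over the vehicle at the medium dose, and 0.201 and 0.19 at the low dose. For the 31 lower ones it was -0.799 and -0.733 at the medium dose, and -0.161 and -0.131 at the low dose. At the low dose 2 of the 30 (ALDH3A1 and AKR1C1) and 0 of the 31 were past the fold against both references, and 0 were past it in the opposite direction. The low dose lay above all 4 comparators in 19 of the 30, beside 17.0% of all genes, and below all 4 in 21 of the 31, beside 18.4%. These genes were chosen against the same comparator libraries, so the counts are a description. The high dose went at least 1.5-fold further in the same direction in 18 of the 30, beside 12.4% of all genes that were as much higher, and in 21 of the 31, beside 16.1% that were as much lower, and came back by as much in 2 and 2. The medium dose set directly against the low dose had 126 genes (0.956%) higher and 180 (1.37%) lower past the fold. The largest ratio among the genes named was that of RGPD5, of a family of near-identical copies, with 8.89 CPM at the medium dose and 1.79 CPM at the low dose. Its vehicle libraries ran from 1.83 to 10.2 CPM and its pooled SD was 0.97. DNAJC25-GNG10, a read-through gene that shares its exons with others, had a ratio of -0.84.

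Many lists had no gene past the fold against both references at either dose. Over all genes 0.44% were higher and 1.15% lower at the medium dose by this rule, so a count of 0 in a list of this size is near the background and says nothing particular of the list. The lists at 0 were 28 heat shock chaperones, 25 ATF4 and CHOP stress genes, 20 chaperones of the endoplasmic reticulum, 13 NF-kB targets and chemokines, 26 genes of cholesterol synthesis, 31 proteasome subunits, 28 genes of mitosis, 28 of DNA replication and 28 of the interferon response. DDIT3, the transcription factor CHOP, had 4.86 CPM at the medium dose and 5.31 CPM at the low dose, against 4.55 CPM in Polygalae low and 5.83, 6.42 and 5.30 CPM in the vehicle, and 25.3 CPM at the high dose. ATF3 had 3.74 CPM at the medium dose and 3.55 CPM at the low dose, against 4.29 CPM in Polygalae low and 4.02, 3.74 and 3.91 CPM in the vehicle, and 28.7 CPM at the high dose. CXCL8, a neutrophil chemokine, had 7.08 CPM at the medium dose and 7.21 CPM at the low dose, against 7.05 CPM in Polygalae low and 7.53, 8.67 and 8.62 CPM in the vehicle. ASNS, TRIB3, CHAC1, HMGCS1, GDF15, EGR1, FOS and MYC differed from either reference by at most 0.37 on the log2 scale at either dose. Also with no gene past the fold against both references were the lists of growth factor and YAP targets (11 genes tested), fatty acid synthesis (9), hypoxia and glycolysis (26), TXNIP and arrestins (6), antigen presentation (12), squamous genes (6), PXR targets (8), autophagy (23), amino acid transporters (19), microtubules (13), nuclear OXPHOS (38) and the mitochondrial genome (13). Smaller shifts are not counted by the fold. Above all 4 comparators at the medium and low dose lay 16 and 12 of the cholesterol genes, with 1 and 1 below. For hypoxia and glycolysis these were 15 and 10, with 2 and 3 below. For DNA replication they were 15 and 14, with 2 and 2 below. For the proteasome they were 18 and 2, with 1 and 7 below. For nuclear OXPHOS they were 1 and 3, with 16 and 17 below. Over all genes 22.6% and 17.0% lay above and 24.3% and 18.4% below.

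**Figure D5:**
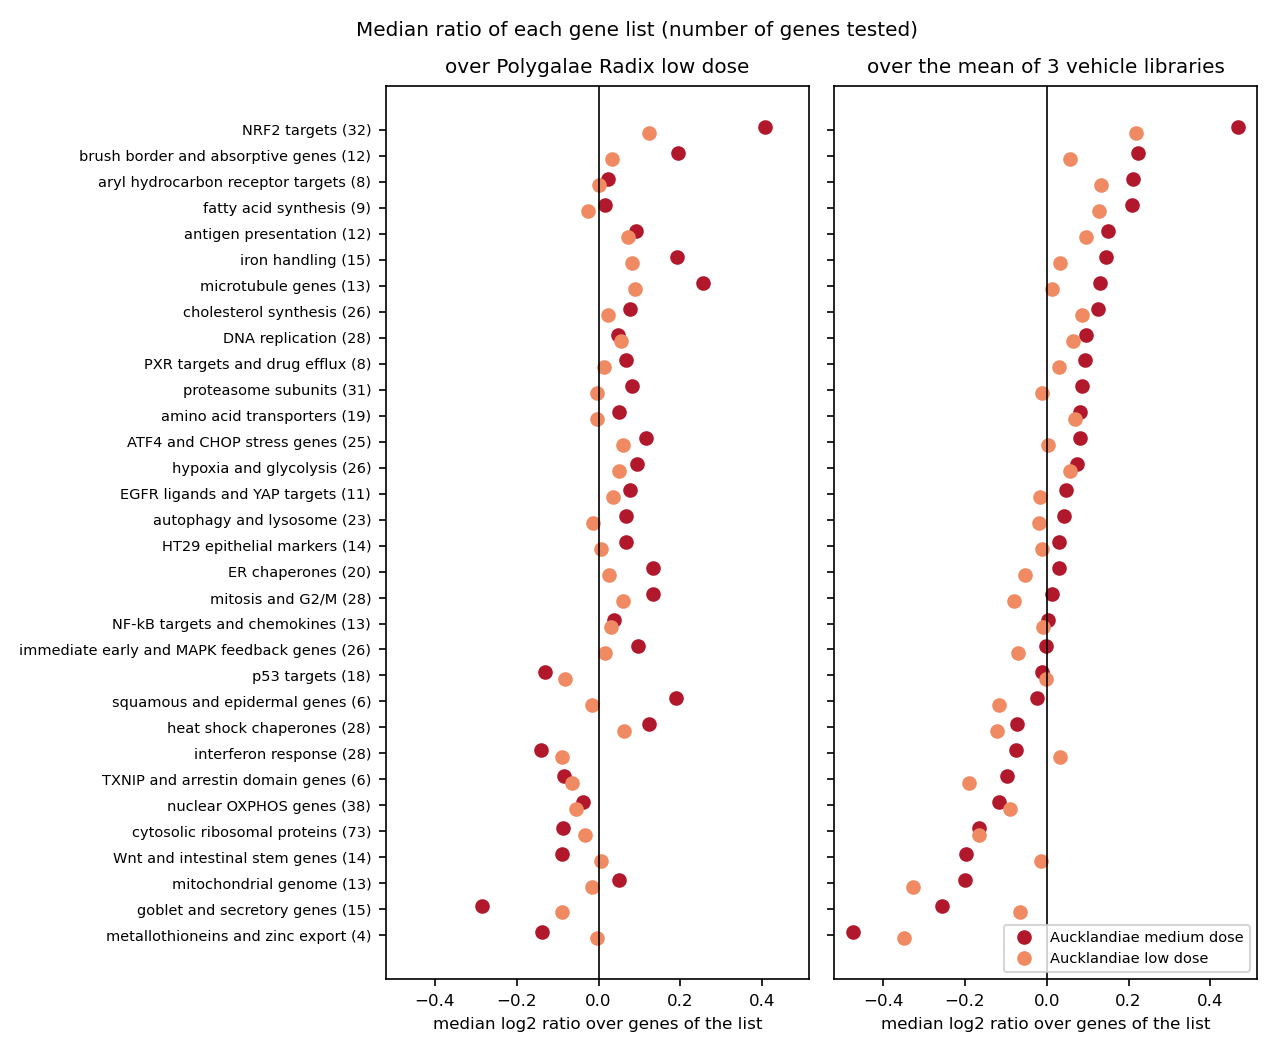
Median log2 ratio of each list with at least 3 genes tested (number in brackets; 32 lists), at the Aucklandiae medium and low doses, over Polygalae low (left) and over the vehicle mean (right). NRF2 targets have the highest positive median in both panels at the medium dose, 0.408 and 0.467, and lie nearer to 0 at the low dose, while over the vehicle the mitochondrial genome lies farther from 0 at the low dose (-0.328) than at the medium dose (-0.199).

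For some genes the 2 references gave different pictures. HSPA8, a constitutive chaperone, had 2505 CPM at the medium dose and 2460 CPM at the low dose, against 2303 CPM in Polygalae low and 2838, 3017 and 3184 CPM in the vehicle. DNAJB1, its co-chaperone, had 95.1 CPM at the medium dose and 84.6 CPM at the low dose, against 81.6 CPM in Polygalae low and 107, 110.4 and 116 CPM in the vehicle. For both, the medium dose, the low dose and Polygalae low lay together below the vehicle. Over the 57 libraries of other treatments the median was 2418 CPM for HSPA8 and 85.5 CPM for DNAJB1. Vehicle replicate 3 was the highest of the 57 for both genes. The high dose, whose library name has the same prefix as the other Aucklandiae libraries, had 1680 CPM of HSPA8 and 128 CPM of DNAJB1. TXNIP, an inhibitor of thioredoxin that follows glucose supply, had 31.5 CPM at the medium dose and 39.2 CPM at the low dose, against 43.2 CPM in Polygalae low and 55.0, 54.3 and 50.9 CPM in the vehicle, below all 4 comparators at both doses, and past the fold at the medium dose against the vehicle alone. Of 73 cytosolic ribosomal protein genes none was past the fold, and 45 at the medium dose and 36 at the low dose lay below all 4 comparators, beside 24.3% and 18.4% of all genes. Their list medians were -0.086 over Polygalae low and -0.165 over the vehicle at the medium dose, and -0.033 and -0.165 at the low dose.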

How the data were processed

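Per the labels' protocols, HT29 RNA was read as 100 bp pairs. The deposited file holds unnormalized expected counts for 60675 Ensembl IDs in 60 libraries, as the authors made them. The tools listed in the submitters' processing notes, with no role or order, are RSEM 1.3.3, STAR 2.7.3a, Trim Galore 0.6.5 and FastQC 0.11.9, and the build is GRCh38. Whether counting used strand is not given in the sources used here. Whole numbers (to within 1e-09) made up 89.9% of values; the rest carry fractions of reads shared among genes, which matters for gene families.

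Expected counts were rounded, scaled by TMM (edgeR 4.0.16, R 4.3.3) and turned into CPM, and library totals ran from 18161717 to 35128954. Genes averaging at least 1 CPM over the 6 libraries were compared in Python 3.11.15. No model or p-value was used, since each dose has 1 library. Counting intervals are 95% conditional binomial, and pooled SDs come from 17 groups of 2 or 3 libraries; that these are separate cultures is not stated. The steps were tested on simulated counts, with equal changes at both doses that were larger than the fold used here. Changes near that fold, changes in genes near 1 CPM and differences between doses were not simulated. Symbols were found for 56558 IDs, and positions come from GENCODE 29 on GRCh38.

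The members, the 37 gene lists, the rule for named genes and the comparisons were chosen with earlier results of these data known. The rule takes the protein-coding genes with a symbol, at least 5 CPM in 1 of the 6 libraries and the largest ratios in each direction, up to 4 genes per list past the fold at the medium dose against both references, and a set of pathway genes. Further members of these lists, and markers, were named after their values were seen. Some genes that the rule or the lists hold are not reported here.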

Additional observations from a re-analysis of the deposited data

How the results depend on the processing

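With RLE size factors in place of TMM, plain library totals, or the mean over all 60 libraries as the filter, the counts of all 6 comparisons stayed within 1.5 times, and the median of all genes moved by at most 0.04 (log2). With 1 CPM added in place of 0.1, the higher and lower counts were 89 and 120 for the medium dose over Polygalae low, 30 and 39 for the low dose over Polygalae low, 66 and 91 for the medium dose over the vehicle, 19 and 28 for the low dose over the vehicle, 51 and 52 for the medium over the low dose, and 1 and 3 for both doses the same way. In the same order they were 65 and 64, 15 and 13, 56 and 55, 15 and 12, 27 and 30, and 2 and 3 among genes averaging at least 5 CPM. They were 1616 and 2314, 1675 and 1913, 1018 and 1453, 1063 and 1154, 1594 and 1910, and 80 and 132 with no filter. With a fold of 2 they were 31 and 53, 14 and 25, 16 and 33, 11 and 18, 23 and 30, and 0 and 1. The split between higher and lower counts came nearer to even at 5 CPM.

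Leaving out 1 vehicle library at a time gave 7 to 8 higher and 7 to 14 lower genes the same way at both doses, and the highest counts came without replicate 2. With the 12 low dose libraries of other extracts as the vehicle, the low dose counts were 21 and 61, and 8 of the 13 same-way genes remained among 15. Against Polygalae low alone 50 and 54 genes were the same way at both doses, and against the vehicle alone 21 and 39. Alternatives chosen after seeing the data gave 30 and 77 genes at a fold of 1.25, 9 and 0 with each ratio past 3 pooled SDs, and 1 and 1 with those SDs taken over all replicated groups. None of the 69 ratios of named genes that were past the fold changed sign under the other scalings, the added 1 CPM, a vehicle library left out or the other low doses (34 ratios over the vehicle for the last 2); ratios of named genes short of the fold were not rerun. RGPD5 at the low dose over the vehicle was -0.31 without vehicle replicate 3. Over all 19 replicated groups the median pooled SD was 0.134, and AKR1C3 had 0.25 in place of 0.10. NRF2 targets above all 4 comparators numbered 27 of 32 at the medium dose with plain totals, and 22 of 32 at the low dose under each scaling. No paired analysis was possible because each dose has 1 library and no result comes from a test. Counts limit genes near 1 CPM most: at the medium dose NOTUM rests on 15 counts, NKD1 on 25, DSEL on 28 and CD200 on 46.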

Other observations

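Several genes that were not picked by the naming rule and that belong to lipid and xenobiotic handling were also past the fold at the medium dose against both references, and they were noticed after their values were seen. SULT2B1, a sulfotransferase of cholesterol and hydroxysteroids, had 88.2 CPM at the medium dose and 59.6 CPM at the low dose, against 53.1 CPM in Polygalae low and a vehicle mean of 55.7 CPM, and 346 CPM at the high dose. MAOB, a mitochondrial amine oxidase, had 11.0 CPM at the medium dose and 6.76 CPM at the low dose, against 6.70 CPM in Polygalae low and a vehicle mean of 7.05 CPM. CYP4F3, a neighbour of CYP4F11 on chromosome 19 that oxidises leukotriene B4, had 3.23 CPM at the medium dose and 1.55 CPM at the low dose, against 0.937 CPM in Polygalae low and a vehicle mean of 1.36 CPM.

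In the other direction NOX1, the NADPH oxidase of the colon epithelium, had 9.25 CPM at the medium dose and 16.3 CPM at the low dose, against 17.6 CPM in Polygalae low and a vehicle mean of 15.5 CPM, and 0.750 CPM at the high dose. WNT11 had 15.5 CPM at the medium dose and 24.8 CPM at the low dose, against 27.7 CPM in Polygalae low and a vehicle mean of 26.7 CPM. FOXA2, a transcription factor of gut endoderm, had 9.91 CPM at the medium dose and 13.5 CPM at the low dose, against 15.2 CPM in Polygalae low and a vehicle mean of 16.1 CPM.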
